A study of Caenorhabditis elegans with 4 samples.

Results

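The regions described here are the NHR-11 peaks of Caenorhabditis elegans that lie in the piRNA-rich domains of chromosome IV. They were chosen by position alone, as peaks whose midpoint fell from 4500000 to 7000000 (the left domain) or from 13500000 to 17200000 (the right domain) on WormBase WS220. The replicate 1 list had 115 such peaks of 2197, the replicate 2 list 86 of 1939, and the list deposited for the whole series 558 of 7089. Merging replicate 1 and replicate 2 peaks with an overlap of 1 bp or more gave 1212 shared regions, of which 58 lay in the domains, 27 in the left and 31 in the right.

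Binding was mapped by ChIP-seq, in which crosslinked chromatin is precipitated with an antibody and the recovered DNA is sequenced. Every library came from hermaphrodites of strain OP305 at larval stage L3, kept at 20 °C. The strain has the allele unc119(ed3) and the integrated transgene wgIs305, in which nhr-11::TY1 EGFP FLAG is combined with unc119. The 2 ChIP libraries used anti-GFP antibodies on this tagged transgene, which was brought in by bombardment, and the genotype as listed leaves the endogenous nhr-11 in place. The 2 input libraries of the same strain have no peak list and were not analysed here. Whole animals were used, so the cells in which a site was bound are unknown, and the labels do not state whether the replicates were separate cultures.

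NHR-11 is a member of the nuclear hormone receptors, a family of transcription factors with a zinc-finger DNA-binding domain. The family is much expanded in C. elegans. The piRNAs of C. elegans are small RNAs that act with the Piwi protein PRG-1 in the germline, where they recognise foreign transcripts for silencing. Most are transcribed from very short separate genes with their own promoters, packed into large domains of chromosome IV between and within ordinary genes. In the RefSeq gene table of assembly WBcel235, 14714 of 15363 piRNA genes (95.8%) were on chromosome IV. That assembly is not the build of the peak lists, so no peak was assigned to a piRNA gene or to any other gene, and how many piRNA genes each domain holds was not analysed here.

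The question was how NHR-11 peaks in each domain compare with those on the rest of chromosome IV. The right domain had fewer peaks per Mb than the rest of IV in both replicates and in the series list, whereas the left domain did not differ from the rest beyond counting error in any list. In replicate 1 the right domain held 15.4 peaks per Mb (57 peaks on 3.7 Mb), against 24.8 in the rest of IV (280 peaks). The ratio of the densities was 0.621 (exact 95% interval 0.459 to 0.828). Replicate 2 gave 11.6 peaks per Mb in the right domain (43 peaks) and 19.8 in the rest of IV (224 peaks), a ratio of 0.586 (0.412 to 0.815). In the series list the ratio was 0.643 (0.560 to 0.737), from 69.5 peaks per Mb (257 peaks) against 108 (1219 peaks). Shared regions were at 8.38 per Mb in the right domain and 12.2 in the rest of IV, and here the interval of the ratio reached 1 (0.685, 0.449 to 1.02).

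The left domain held 23.2 peaks per Mb in replicate 1 (58 peaks on 2.5 Mb), a ratio to the rest of IV of 0.935 (0.693 to 1.25). In replicate 2 it held 17.2 per Mb (43 peaks; ratio 0.867, 0.610 to 1.21). The 27 shared regions there gave 10.8 per Mb (ratio 0.884, 0.562 to 1.34). Its 301 series peaks gave 120.4 per Mb, more than any other stretch of IV before, between or after the domains, but the ratio to the rest of IV was 1.12 and its interval held 1 (0.980 to 1.27). Set against each other, the left domain was denser than the right by 1.51 times in replicate 1 (1.03 to 2.21), by 1.48 times in replicate 2 (0.947 to 2.31) and by 1.73 times in the series list (1.46 to 2.06). For shared regions the value was 1.29 times (0.740 to 2.23), and there as in replicate 2 the interval held 1. The intervals treat peaks as placed independently, which would give counts per bin a variance equal to their mean. Over 500 kb bins in the rest of IV, the variance over the mean was 5.33 in the series list, 1.75 in replicate 1, 1.38 in replicate 2 and 0.811 for shared regions, so the intervals of the series list are too narrow by the most. On the other chromosomes pooled it was 10.2, 3.92, 3.06 and 2.95 in the same order. Intervals of comparisons with those chromosomes are therefore too narrow in every list. In replicate 1 it was 3.04 in the left domain and 1.08 in the right, so the left-to-right interval there is too narrow as well.

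**Figure D1:**
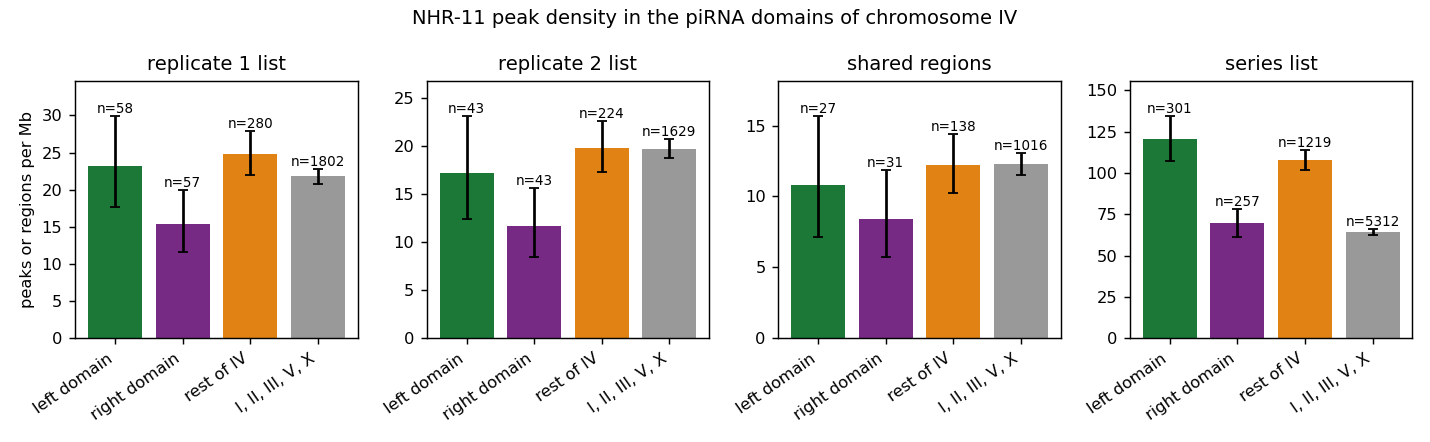
Peaks or shared regions per Mb (vertical axis, from 0) in the left and right piRNA domains, the rest of chromosome IV and the other 5 chromosomes, in each list; bars are densities, error bars exact 95% Poisson intervals, and n the number of peaks. The right domain is below the rest of IV in all 4 panels, and in the series list the left domain (120.4 per Mb) and the rest of IV (108) stand above the pooled value of the other chromosomes (64.3), though not above chromosome I (124).

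Measured against other chromosomes, the domains gave different answers in the replicate and series lists, and the answers depended on chromosome I, the densest in each list. Chromosome I had 37.4 and 30.2 peaks per Mb in replicates 1 and 2 and 124 in the series list. Both domains were below it in the replicates, the left at ratios of 0.620 (0.465 to 0.813) and 0.570 (0.407 to 0.780) and the right at 0.412 (0.308 to 0.541) and 0.385 (0.275 to 0.527). Chromosomes II, III, V and X together had 18.3 peaks per Mb in replicate 1 and 17.4 in replicate 2. Against these the left domain had ratios of 1.27 (0.956 to 1.65) and 0.990 (0.713 to 1.34), and the right domain 0.841 (0.633 to 1.10) and 0.669 (0.482 to 0.907). The right domain was thus lower than these 4 chromosomes in replicate 2 alone, and its replicate 1 density of 15.4 per Mb was close to that of chromosome V (14.4).

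In the series list both domains were denser than chromosomes II, III, V and X, which had 50.8 peaks per Mb together. The left domain stood at 2.37 times that value (2.10 to 2.66) and the right at 1.37 times (1.20 to 1.55). The rest of IV stood at 2.12 times (1.99 to 2.27), so the height in that list was also found on IV outside the domains. Against chromosome I the left domain was at 0.968 (0.854 to 1.09) and the right at 0.558 (0.488 to 0.636). With chromosome I pooled with the other 4, the right domain was at 1.08 (0.950 to 1.23).

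A lower density near the right end was not seen on chromosome IV alone. The stretch of each other chromosome with the same relative position as the right domain, from 77.2% to 98.3% of its length, was compared with that chromosome outside the relative positions of both domains. On chromosome V the ratio was 0.434 in replicate 1 (0.290 to 0.630) and 0.466 in replicate 2 (0.309 to 0.682), with intervals that overlapped those of the right piRNA domain. Chromosome I gave 0.695 (0.545 to 0.876) and 0.702 (0.536 to 0.910). Chromosomes III and X gave ratios from 0.877 to 1.06 in the replicates, with intervals that held 1. On II the replicates differed, with 0.940 (0.686 to 1.27) in replicate 1 and 0.710 (0.500 to 0.991) in replicate 2. In the series list the ratio was 0.649 (0.537 to 0.779) on V and 0.825 (0.685 to 0.989) on II. There chromosome I gave 0.959 (0.853 to 1.08), and the intervals of I, III and X held 1. For the relative position of the left domain, all 12 intervals over the 6 chromosomes and both replicates held 1, with ratios from 0.867 on IV in replicate 2 to 1.22 on III in replicate 2. In the series list the interval on III excluded 1 (1.31, 1.07 to 1.59), and those of the other chromosomes held 1. Over their whole length, chromosomes I and V have 98 and 202 of the 15363 annotated piRNA genes in the WBcel235 table. Whether piRNA genes bear on peak density was not tested.

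**Figure D2:**
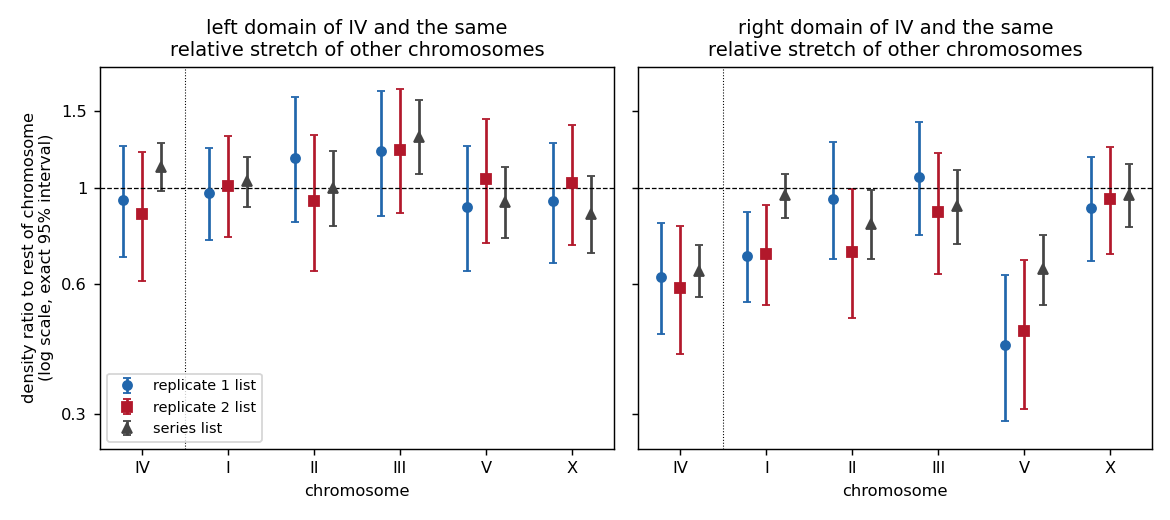
Ratio of the peak density in a stretch to that in the rest of its chromosome (log scale) for the left (first panel) and right (second panel) piRNA domain of IV and for the same relative stretch of the other chromosomes; points are lists, bars exact 95% intervals, and the dashed line marks 1. The right stretch is below 1 on IV, and also on V, where replicate 1 gives 0.434 and replicate 2 gives 0.466.

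Counts along the domains ranged as follows. The left domain's 5 bins of 500 kb held 5 to 20 replicate 1 peaks (median 10), 6 to 13 replicate 2 peaks (median 7) and 44 to 84 series peaks (median 57). The bin from 5.5 to 6 Mb was the fullest of the left domain in all 3 lists, with 20, 13 and 84 peaks. In the right domain, the 7 complete bins held 4 to 12 peaks in replicate 1, 4 to 13 in replicate 2 and 18 to 54 in the series list. The rest of IV had 5 to 22 peaks per bin in replicate 1 and 3 to 19 in replicate 2. These ranges cover all replicate counts of the domains but the emptiest right-domain bin of replicate 1. In the series list the rest of IV had 10 to 76 per bin, below the left-domain bin with 84. Shared regions numbered 3 to 8 per bin in the left domain and 2 to 10 in the right, the highest being the bin from 14.5 to 15 Mb.

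A second comparison asked how many of these sites were found in both replicates. Domain peaks were found in the other replicate about as often as peaks elsewhere, and the share over the whole list lay inside the interval of each domain. In replicate 1, 27 of 58 left-domain peaks (46.6%, 33.3 to 60.1%) and 31 of 57 right-domain peaks (54.4%, 40.7 to 67.6%) overlapped a replicate 2 peak, against 55.3% of the whole list and 49.3% (43.3 to 55.3%) in the rest of IV. In replicate 2, 27 of 43 left-domain peaks (62.8%, 46.7 to 77.0%) and 31 of 43 right-domain peaks (72.1%, 56.3 to 84.7%) overlapped a replicate 1 peak, against 62.9% of the whole list. No difference of either domain from the background was detectable with these numbers of peaks.

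Shared regions of the domains were of ordinary strength. The deposited value of a peak is its significance as the peak caller gave it, a p-value or q-value (which is not stated), with smaller values stronger and the lists ending just under 0.001. The median −log10 value of the 27 left-domain regions was 6.09 in replicate 1 and 6.07 in replicate 2, and that of the 31 right-domain regions 5.66 and 5.39. Over all 1212 regions the medians were 5.60 and 5.54, and in the rest of IV 5.33 and 4.97. Ordered by summed replicate rank, 3 regions of each domain were among the first 100. The strongest 25% of both lists held 8 of the left-domain regions (29.6%) and 9 of the right-domain regions (29.0%), against 30.7% of all. Median widths were 399 bp and 402 bp, against 381 bp for all shared regions.

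In the left domain the first place went to the region IV at 4749854 to 4750239 (386 bp), place 36 of all 1212. Its deposited value was 2.16e-28 in replicate 1 and 5.07e-28 in replicate 2, and 4.01e-60 in the series list. The next, at 4725436 to 4725727 (292 bp), had 6.07e-22 and 1.24e-16 in the replicates and 9.3e-40 in the series list. Both lay near the start of the domain, as did the regions at 4727932 to 4728192 (place 5) and at 4720550 to 4720762 (place 12). The region at 5753842 to 5754667 (826 bp) took place 3, with 1.76e-19 in replicate 1 and 1.99e-16 in replicate 2. Its series value of 7.58e-66 was the strongest of the left domain, so the order of the first places differed between the series list and the replicates.

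Places 4 to 10 of the left domain were held by the regions starting at 6514698, 4727932, 5604393, 6336675, 6393287, 6878847 and 4660287. Their replicate 1 values ran from 5.88e-13 to 2.67e-06 and their replicate 2 values from 6.06e-14 to 8.45e-07. The replicates ordered them differently. The region at 6393287 to 6393697 ranked 129 in replicate 2 and 671 in replicate 1, while the region at 6336675 to 6337126 ranked 205 in replicate 1 and 563 in replicate 2. The weakest left-domain region by summed rank, at 4613480 to 4613925, had 8.77e-05 and 0.00095.

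The first region of the right domain lay at 14032766 to 14034534 and was 1769 bp wide, the widest shared region of either domain. It had values of 2.13e-27 and 4.23e-32 in replicates 1 and 2 and 7.1e-97 in the series list, and stood at place 31 of all shared regions. The region at 14613381 to 14614733 (1353 bp) followed at place 34, with 2.79e-27 in replicate 1, 1.33e-29 in replicate 2 and rank 36 in both lists. The narrow region at 15471421 to 15471747 (327 bp), place 62, had 2.52e-19 in replicate 1 and 1.01e-19 in replicate 2. In these 3 regions the replicate ranks differed by at most 7 places, and the same 3 regions had the strongest replicate values of the right domain.

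From place 4 to place 10 the right domain had the regions starting at 16658777, 16491406, 14612529, 14767708, 14621760, 14620204 and 15646288. Their values ran from 1.22e-12 to 6.49e-08 in replicate 1 and from 9.38e-13 to 3.4e-07 in replicate 2. Of these, the region at 16491406 to 16492819 was 1414 bp wide and had a series value of 3.5e-44. At the other end, the right domain held the region ranked last of all 1212, at 14260707 to 14261170, with 0.000941 in replicate 1 and 0.000881 in replicate 2.

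**Figure D3:**
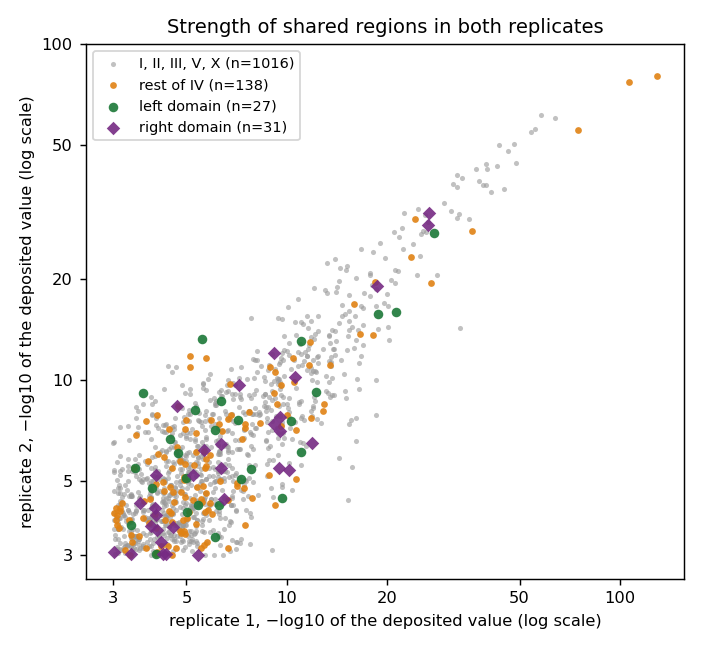
The −log10 deposited value of each shared region in replicate 1 (horizontal axis) and replicate 2 (vertical axis), both on log scales, with the 27 left-domain and 31 right-domain regions marked among the rest of IV and the other chromosomes. The domain regions are spread over the cloud from place 31 of 1212 downwards, and the strongest regions of IV lie outside the domains.

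Ranks, widths and positions of the domain regions were compared between the replicates. A shared region requires overlapping peaks, so small offsets in position follow in part from that rule. Spearman's rho between replicate ranks was 0.546 over the 27 left-domain regions and 0.798 over the 31 right-domain regions, beside 0.719 over all 1212. For widths it was 0.670 and 0.894, beside 0.837 over all. These are descriptions across regions of the same libraries, which are not independent replicates. Midpoints of the strongest overlapping peaks differed by a median of 26 bp in the left domain and 48 bp in the right, beside 28.75 bp over all. They were within 100 bp of each other for 24 of 27 and 26 of 31 regions, beside 1079 of all 1212.

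Peaks called in 1 replicate alone were weaker. The left domain had 31 such peaks of 58 in replicate 1 and 16 of 43 in replicate 2, and the right domain 26 of 57 and 12 of 43. Over the whole lists there were 982 of 2197 and 720 of 1939. In the left domain the strongest were in replicate 1, at 5973847 to 5974524 (5.81e-08, rank 406) and at 5753236 to 5753628 (2.07e-07, rank 466). The latter lay 213 bp before the third-placed left-domain region. The strongest of replicate 2 there, at 6058753 to 6058832 and at 4506863 to 4506969, had ranks of 890 and 891. In the right domain, replicate 1 alone had peaks at 15049492 to 15050140 (1.77e-06) and at 15020887 to 15021260 (2.62e-06). Replicate 2 alone had peaks at 14617114 to 14617453 (4.94e-07) and at 15561199 to 15561554 (4.94e-06). All 8 of these peaks overlapped a series peak, as did most peaks of the domains: 56 of 58 and 53 of 57 in replicate 1, where the whole list had 93.4%, and 42 of 43 and 41 of 43 in replicate 2, where it had 95.2%.

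The third comparison was with the series list, whose making is not described in the sources used here. It named many sites in the domains that neither replicate list held. Of the 301 series peaks in the left domain, 234 (77.7%, 72.6 to 82.3%) overlapped no replicate peak, and in the right domain 196 of 257 did (76.3%, 70.6 to 81.3%). The background over the whole series list was 63.1%. Outside the domains the share was 73.1% (70.5 to 75.6%) on IV, 65.5% (63.3 to 67.6%) on I and 55.9% (54.2 to 57.6%) on II, III, V and X. Both domains were thus above the other chromosomes by more than counting error, and their intervals overlapped that of the rest of IV. Overlap with both replicates was found for 30 left-domain peaks (9.97%) and 30 right-domain peaks (11.7%), against 17.3% of the whole list and 11.6% in the rest of IV.

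There were 5.19 series peaks for each replicate 1 peak in the left domain and 4.51 in the right. The rest of IV had 4.35 and the other chromosomes 2.95. Against replicate 2 the numbers were 7 in the left domain, 5.98 in the right, 5.44 in the rest of IV and 3.26 on the other chromosomes.

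Series peaks were also compared within parts of like series value. The domains' intervals lay above those of II, III, V and X except in the weakest 25%, and overlapped those of chromosome I and the rest of IV. A like series value did not mean a like replicate value. At shared regions the −log10 series value was a median of 3.19 times the replicate mean on IV and 2.94 times on I. On II, III, V and X it was 2.09 to 2.13 times, so the parts do not match replicate strength between chromosomes. In the strongest 25% of the series list, 11 of 64 left-domain peaks (17.2%, 8.90 to 28.7%) and 13 of 62 right-domain peaks (21.0%, 11.7 to 33.2%) had no replicate peak. The share was 19.8% (15.6 to 24.4%) in the rest of IV, 14.4% (11.6 to 17.6%) on I and 3.36% (2.18 to 4.91%) on II, III, V and X. In the next 25% the shares were 84 of 98 (85.7%, 77.2 to 92.0%) and 49 of 59 (83.1%, 71.0 to 91.6%), against 83.4% in the rest of IV, 74.2% (70.1 to 77.9%) on I and 34.5% (31.2 to 37.9%) on the 4 others. In the following 25%, all 66 left-domain peaks and 70 of 72 right-domain peaks (97.2%) had none, beside 97.3% in the rest of IV, 94.4% on I and 76.3% on the 4 others. In the weakest 25% all 73 and all 64 had none, where the whole list had 96.3% and II, III, V and X had 94.0% (92.4 to 95.4%).

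**Figure D4:**
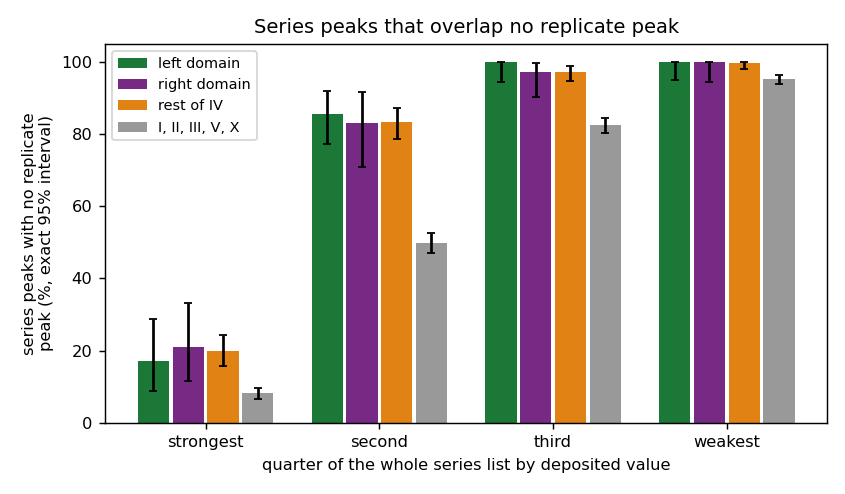
Percent of series peaks that overlap no peak of either replicate (vertical axis, from 0), for 4 equal parts of the whole series list in order of deposited value, for the 2 piRNA domains, the rest of IV and the other chromosomes; error bars are exact 95% intervals. In the second part the domains reach 85.7% and 83.1% and the rest of IV 83.4%, against 49.8% on the other chromosomes pooled, among which chromosome I has 74.2%.

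The strongest series peaks without a replicate peak in the left domain lay at 6383229 to 6383648 (9.17e-14, rank 771), at 5984961 to 5985795 (1.61e-13) and at 6954670 to 6955216 (1.96e-12). In the right domain they lay at 16180760 to 16181284 (2.35e-12, rank 935), at 14609883 to 14610535 (3.61e-12) and at 17190030 to 17190327 (1.48e-11). All 6 were 298 to 835 bp wide. Most others were narrow: the median width of series peaks in neither replicate was 141 bp in the left domain and 96 bp in the right, against 146 bp over the whole list. Peaks under 50 bp made up 62 of the 257 right-domain series peaks (24.1%, 19.0 to 29.8%), 16.6% (12.6 to 21.3%) in the left domain, 17.8% (15.7 to 20.1%) in the rest of IV and 14.9% in the whole list. In the replicate lists, 3 right-domain peaks of replicate 1 (5.26%, whole list 8.88%) and 4 of replicate 2 (9.30%, whole list 5.67%) were that short.

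As with 1210 of all 1212 shared regions, every one in the domains had a stronger value in the series list than in either replicate. The −log10 series value was a median of 3.23 times the mean of the replicates' −log10 values in the left domain (interquartile range 2.90 to 3.42) and 3.26 times in the right (2.79 to 3.59). The rest of IV had 3.18 times and chromosome I had 2.94 times. On chromosomes II, III, V and X the medians were 2.09 to 2.13 times. No other ChIP library belongs to the series, and the libraries behind its list are not stated, so its values are not taken as separate evidence for a site. How the series values on IV came to be raised relative to the replicates was not tested.

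Shared regions of both domains lay close together about as often as all shared regions did. Another shared region was found within 10000 bp of 17 of the 31 right-domain regions (54.8%, 36.0 to 72.7%) and of 9 of the 27 left-domain regions (33.3%, 16.5 to 54.0%). Over all shared regions the share was 43.1%, inside both intervals. In the rest of IV it was 51 of 138 (37.0%, 28.9 to 45.6%), an interval that overlapped those of both domains. A run of 7 regions from 14606435 to 14624262 (17828 bp) contributed 7 of the 17, and the right domain had 5 further pairs. The left domain had 1 group of 3 regions, from 4720550 to 4728192 (7643 bp), and 3 pairs. Groups of 3 or more regions numbered 68 on all chromosomes, 63 of them outside IV, where the largest also had 7 regions.

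In the run of 7, the fourth region, at 14613381 to 14614733, was the strongest in both replicates (2.79e-27 and 1.33e-29). The third region, at 14612529 to 14613242, lay 138 bp before it, with 2.78e-10 in replicate 1 and 1.93e-08 in replicate 2. A single series peak of 2516 bp, from 14612223 to 14614738 and ranked 6 of 7089, covered both (9.64e-109). The sixth region, at 14621760 to 14622884, had 1.22e-12 in replicate 1 and 3.4e-07 in replicate 2. The fifth, at 14620204 to 14621547, had 7.29e-10 and 4.52e-08. The last, at 14623753 to 14624262, was the weakest, with 0.000235 and 5.11e-05. Replicate 2 called a further peak inside the run, at 14617114 to 14617453, that replicate 1 did not call and the series list did (7.98e-20).

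**Figure D5:**
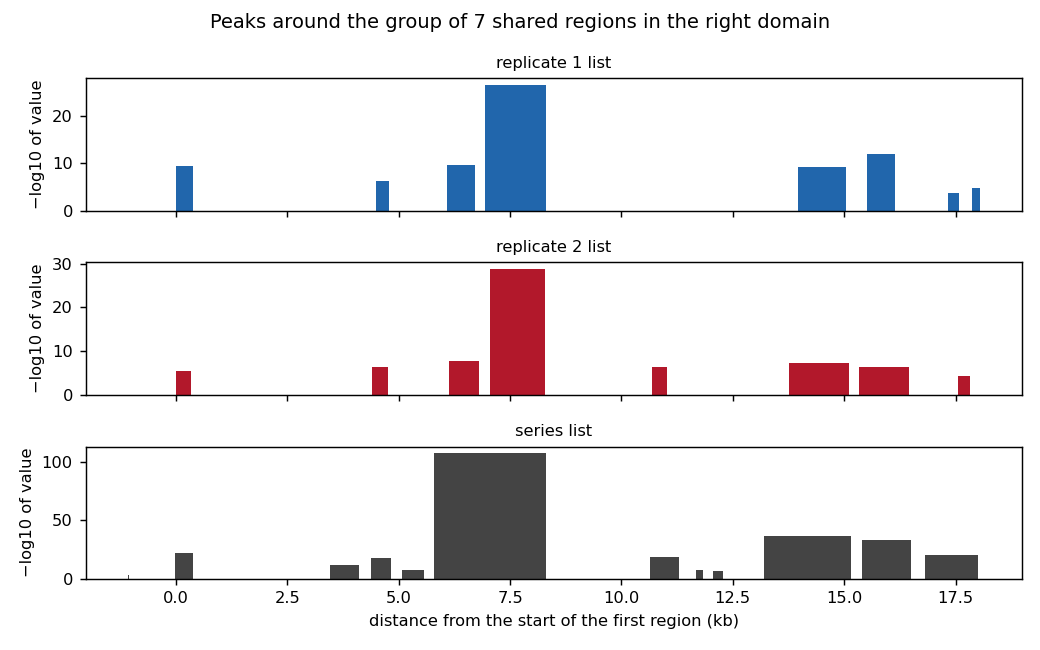
Peaks of each list around the run of 7 shared regions in the right domain; the horizontal axis is the distance from the start of the first region in kb, bar width is the peak's width and bar height the −log10 deposited value (each panel from 0, on its own scale). The 7 positions are in both replicates by definition. Replicate 1 alone has a further peak at 14624307 to 14624477, and replicate 2 alone has one at 14617114 to 14617453. The broad series peak of 2516 bp covers the third and the fourth region.

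At the limits of the domains, the shared regions nearest to the left domain's start lay at 4445737 to 4446110, outside, and at 4513438 to 4513836, inside, with replicate 1 values of 2.31e-10 and 1.98e-05. At its end they lay at 6881220 to 6881598, inside, and at 7084815 to 7085048, outside (0.000311 and 0.000694). For the right domain, the nearest to its start were at 13394929 to 13395554, outside, and at 13695821 to 13696130, inside (1.48e-05 and 4.53e-05). The last inside was at 16865489 to 16865756 (6.48e-05), followed outside by 17249676 to 17250042 (1.06e-16). The midpoint of that last inner region was 334378 bp before the end of the right domain.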

How the data were processed

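Per the file headers, coordinates follow WormBase WS220; PeakSeq stands as the source of every peak. The authors deposited 1 significance p-value or q-value (which is not stated) per peak. The aligner, controls and threshold, and the making of the series list, are not given in the sources used here. No read counts are in the lists, so depth is unknown. Running peak numbers have gaps (24, 14 and 169 numbers in replicate 1, replicate 2 and the series list), and such peaks were not analysed here.

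Densities were counts of peak midpoints per Mb. The rest of IV is 11.3 Mb outside both domains, taking the highest coordinate in the lists as the length. Ratios carry exact conditional binomial (Clopper-Pearson) 95% intervals, shares exact binomial ones; they cover counting error only, and no p-values were computed. A ratio was called where its interval excluded 1. Regions were named by summed replicate rank (10 per domain), the strongest unshared peaks (2 per replicate list, 3 in the series list), and the largest group joined within 10000 bp. The members, comparisons and lists were chosen with earlier results of these data known. The ratio and its interval were tested on simulated independent counts, and the overlap rule on planted peaks. The assignment of peaks to domains was not tested. Gene positions and sequences, planned for a WS220 genome, were not used here. Python 3.11.15, numpy 2.4.6, scipy 1.17.1 and matplotlib 3.10.9 were used.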

Additional observations from a re-analysis of the deposited data

How the results depend on the processing

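Of 126 alternative values for 14 results, 95 were counted as unchanged. For density ratios this meant the same direction and the same side of the limit. For covered base pairs, which have no interval, it meant the same direction and a value inside the main interval. For shares it meant a value inside the main interval. The right-domain ratio was below 1 in 48 of 50 alternatives. These are not independent, and they include settings without the domain's fullest 500 kb bin and settings that repeat the replicate lists. The tally is therefore not a measure of support. The exceptions were the series list against the other chromosomes (1.08) and against them without chromosome I (1.37). That last comparison gave 0.841 in replicate 1, with an interval that held 1, and was added after the data were seen. Joining series peaks within 10000 bp gave 0.824, with an interval that held 1 (0.649 to 1.04). For right-domain shared regions (0.685), the interval came to exclude 1 in 8 settings. These were each replicate alone (leaving out a replicate gave 0.586 to 0.621), an overlap of 50% of the shorter peak (0.651), joined neighbours (0.550), the rest of IV without 9 to 10 Mb (0.668), the other chromosomes (0.682), the stretch between the domains (0.626) and the domain without its fullest 500 kb bin (0.537). The last 2 settings were added after the data were seen. The settings with each replicate alone use that replicate's own list, so they repeat its ratio and are not further support. Taking the fullest bin from the domain alone could only lower the ratio, so nothing is concluded from that setting. The left-domain ratio crossed 1, with intervals holding 1 wherever there was one, as follows. With a value limit 10 times stricter it was 1.05 for shared regions and 1.12 in replicate 2. Against II, III, V and X it was 1.02 for shared regions and 1.27 in replicate 1. In replicate 1 it was 1.04 with edges moved outward by 250000 bp, 1.01 with joined neighbours and 1.06 against the other chromosomes. In the series list it was 0.986 with joined neighbours, 0.990 by covered base pairs and 0.854 among the 1939 strongest peaks. The series ratio passed its limit with edges outward (1.15), against the other chromosomes (1.87, or 2.37 without I) and against the stretch between the domains (1.18). It also did so without the bin from 4.5 to 5 Mb (1.19). That bin was chosen as the fullest in shared regions (8), but it had the fewest series peaks of the left domain (44). The share of series peaks with no replicate peak, leaving out a replicate, was 81.7 to 86.0% in the left domain and 80.2 to 84.4% in the right. With the stricter limit on the series list it was 70.5% and 68.4%. Leaving out a replicate could only raise this share. The stricter limit removed the weakest series peaks, and in the weakest 25% every series peak of the domains lacked a replicate peak. The cause of the other changes was not tested. No paired analysis was possible because only ChIP libraries have peak lists among the files used. With 27 and 31 shared regions, the ratios can be resolved only to within the intervals given.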

Other observations

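Within the right domain, the bin from 16 to 16.5 Mb had the most series peaks (54) but the fewest replicate 1 peaks (4) and shared regions (2), with 5 replicate 2 peaks. Of its series peaks, 48 (88.9%) overlapped no replicate peak, where the whole series list had 63.1% and the rest of IV 73.1%. The median width over all series peaks of the bin was 103 bp and the median value 1.84e-05. The adjacent bin from 16.5 to 17 Mb had 18 series peaks, the fewest of the right domain, with 7 and 5 replicate peaks, and 55.6% of its series peaks overlapped no replicate peak. In the left domain, the bin from 6 to 6.5 Mb had a similar make-up to the first of these, with 56 series peaks, 50 of them (89.3%) in neither replicate, beside 5 and 6 replicate peaks. These bins were picked after their values were seen.

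Some shared regions differed widely in strength between replicates. The left-domain region at 5805483 to 5805928 had a value of 8.09e-10 in replicate 2 (rank 267) and 0.000196 in replicate 1 (rank 1525). The region at 6323596 to 6323993 had the reverse order, with 2.21e-10 in replicate 1 (rank 259) and 3.6e-05 in replicate 2 (rank 980). In the right domain, the region at 13887280 to 13888095 had 2.05e-05 (rank 973) and 4.7e-09 (rank 322). Depth is unknown, so whether these differences exceed sampling error was not tested.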
